A study of Mus musculus with 2 samples.

Results

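The genes described here are 9 that handle iron or bind zinc and copper: Fth1 and Ftl1, Hmox1, Slc40a1, Tfrc, Trf and Cp, and the metallothioneins Mt1 and Mt2. They were taken by symbol from the gene table of the study, in which each name occurred once, so 9 of 31053 genes were followed. Their transcripts were counted as unique molecular identifiers (UMIs), tags that mark single captured RNA molecules, in single cells of mouse retina. The study held 2 droplet libraries. One was made from mice treated with MSC-sEV, as the labels name it, and the other from mice given PBS. Both were from C57BL/6 mice aged 6 to 8 weeks, sampled 2 weeks after the injury that the labels shorten to onc and the study's design text describes as an injury of the optic nerve. In each library the retinas of 6 mice were pooled, digested with papain and passed over magnetic beads against CD45, a surface protein of leukocytes. No uninjured retina was included, and no genotype other than the strain was given. With 1 pool per treatment there was no replicate, so no test between the treatments was possible, and treatment and library cannot be told apart. All intervals below are exact 95% intervals and cover counting error only.

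Cells take up iron bound to transferrin (Trf) through the transferrin receptor (Tfrc), store it inside ferritin shells of heavy (Fth1) and light (Ftl1) chains, and release it through ferroportin (Slc40a1), helped by the ferroxidase ceruloplasmin (Cp). Heme oxygenase 1 (Hmox1) frees iron from heme. Metallothioneins are small cysteine-rich proteins that bind zinc and copper, and their genes are switched on by metals, glucocorticoids and oxidative stress. Müller glia, the radial glia of the retina, are a known retinal source of ceruloplasmin and metallothioneins, while macrophages and microglia are the cells that recycle heme iron.

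When iron is low, iron regulatory proteins bind a short hairpin in these mRNAs, the iron responsive element, whose loop reads CAGTGN in DNA letters. A hairpin in the 5′ untranslated region blocks translation, and hairpins in the 3′ untranslated region protect the transcript from decay. The letters searched were a C, then 5 bases, then CAGTGN, then 5 bases that pair with the first 5, with G pairing to T allowed. This pattern occurred in 4 of the 9 genes (GENCODE M21 transcripts, build GRCm38), in the 5′ untranslated region of Fth1, Ftl1 and Slc40a1 and at 4 places in the 3′ untranslated region of Tfrc. In 5′ untranslated regions it occurred in 31 of 21877 protein-coding genes (0.142%), and in 3′ untranslated regions in 129 (0.590%). The sites are shown because they divide the storage and export genes from the uptake gene. They are written 5′ to 3′ on the strand of the gene, with the loop in capitals.
Fth1 (chr19:9982731-9982760, plus strand): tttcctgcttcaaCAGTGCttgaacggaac
Ftl1 (chr7:45459779-45459808, minus strand): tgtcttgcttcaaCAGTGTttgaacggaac
Slc40a1 (chr1:45925465-45925494, minus strand): ccaacttcagctaCAGTGTtagctaagttt
Tfrc site A (chr16:32631218-32631247, plus strand): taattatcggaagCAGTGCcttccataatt
Tfrc site B (chr16:32631597-32631626, plus strand): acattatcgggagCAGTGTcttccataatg
Tfrc site C (chr16:32631662-32631691, plus strand): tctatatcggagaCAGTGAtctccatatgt
Tfrc site D (chr16:32631709-32631738, plus strand): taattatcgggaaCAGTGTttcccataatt

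The start of each metallothionein gene was searched for the core of the metal response element, the site of the metal-sensing factor Mtf1, as TGCACNC or TGCGCNC on both strands. The window ran from 250 bases before to 50 bases after the RefSeq start. Mt2 held 4 matches and Mt1 held 3, of which 3 and 1 lay wholly before the start. The remaining matches began at bases 3 and 21 of Mt1 and base 5 of Mt2, counted from that start. How many lie before the start depends on the annotation. RefSeq starts Mt2 at 94172618 and Mt1 at 94179089, whereas GENCODE M21 starts them at 94172664 and 94179082. Of 32851 promoter windows in the RefSeq table for GRCm38.p6, 0.517% held at least 4 and 1.97% at least 3. Among the other members with an entry, the first start of Tfrc held 2 matches, both before the start and overlapping each other on opposite strands, and Fth1, Ftl1 and Cp held 0. The 250 bases before each start are shown with the matches in capitals, on the plus strand, which is the strand of both genes.
Mt1 (chr8:94178839-94179088, GRCm38.p6): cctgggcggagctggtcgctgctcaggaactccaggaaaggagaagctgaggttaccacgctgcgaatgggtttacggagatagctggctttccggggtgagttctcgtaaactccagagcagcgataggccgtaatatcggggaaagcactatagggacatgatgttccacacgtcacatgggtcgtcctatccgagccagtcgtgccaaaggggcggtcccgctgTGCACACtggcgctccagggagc
Mt2 (chr8:94172368-94172617, GRCm38.p6): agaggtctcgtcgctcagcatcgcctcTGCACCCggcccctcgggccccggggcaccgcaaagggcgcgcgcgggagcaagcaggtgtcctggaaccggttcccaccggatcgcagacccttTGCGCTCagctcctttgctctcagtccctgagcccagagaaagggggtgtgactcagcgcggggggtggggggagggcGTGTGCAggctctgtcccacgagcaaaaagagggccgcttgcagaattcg
The annotated end of Mt2 lay 5514 bases before the annotated start of Mt1.

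In mm10, Fth1 spans chr19:9980598-9985098 on the plus strand, Ftl1 chr7:45457944-45459884 on the minus strand and Hmox1 chr8:75093621-75100589 on the plus strand. Slc40a1 spans chr1:45908068-45926523 on the minus strand and Tfrc chr16:32608920-32632794 on the plus strand. Trf spans chr9:103204001-103230444 on the minus strand, Cp chr3:19957054-20009145 on the plus strand, Mt2 chr8:94172664-94173568 and Mt1 chr8:94179082-94180327, both on the plus strand. Trf overlaps Gm20425 on the same strand, Cp overlaps Hps3 on the opposite strand, and Mt2 overlaps the antisense gene Gm45774, so reads in the shared parts are uncertain. Ferritin genes have near-identical processed copies. The copy Ftl1-ps1 was counted apart with 1227 UMIs in the MSC-sEV library and 214 in the PBS library, and how reads were split between it and Ftl1 is uncertain. Of the related genes, the mitochondrial ferritin gene Ftmt and Mt4 had 0 UMIs in both libraries, and Mt3, the neuronal metallothionein, had 487 in MSC-sEV cells and 465 in PBS cells.

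After filtering, 2319 MSC-sEV cells with a median of 2922 UMIs and 1344 PBS cells with a median of 2596 UMIs were analysed, with medians of 2.59% and 5.07% mitochondrial UMIs. No cell barcode was shared. The labels call the cells retinal immune cells, but rod-like cells made up 51.5% of the MSC-sEV cells and 46.4% of the PBS cells. Clusters were made without the 9 members and named from marker genes. Microglia-like cells numbered 407 and 109 in the MSC-sEV and PBS libraries, Müller glia-like cells 81 and 134, rod-like cells 1195 and 624, and cone-like cells 51 and 75. Monocyte or macrophage-like cells numbered 218 in the MSC-sEV library and 0 in the PBS library, so no comparison between treatments was made for them. All levels below are in CPM, where the UMIs of a gene are divided by all UMIs of the same class and library and scaled to 1000000. Müller glia markers took 10618 CPM of the Müller glia-like cells in the MSC-sEV library and 10973 CPM in the PBS library, and all 10 were detected in both.

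The plot of levels by class sets the genes side by side in the 5 classes described here. Among these, in the MSC-sEV library, ferritin and Hmox1 were highest in macrophage-like cells, Slc40a1 in microglia-like cells, Tfrc in rod-like cells, and Trf, Cp, Mt1 and Mt2 in Müller glia-like cells. In the PBS library, which lacked the macrophage-like class, Fth1, Ftl1, Hmox1, Slc40a1 and Trf were highest in microglia-like cells, Tfrc in rod-like cells, and Cp, Mt1 and Mt2 in Müller glia-like cells. A single subcluster of 45 of the 218 macrophage-like cells, described below, held 18189 of their 29839 Fth1 UMIs, 17002 of 25650 Ftl1 UMIs and 300 of 440 Hmox1 UMIs. The other subclusters had Fth1 at 3230 to 5532 CPM and Hmox1 at 0 to 77.7 CPM. MSC-sEV microglia-like cells had 3724 and 63.0 CPM. On reclustering only those 45 cells and a subcluster of 41 were named monocyte or macrophage, so most of the class was named as other cell types. Slc40a1 in microglia-like cells exceeded the macrophage-like level 1.53-fold (1.08 to 2.19). Tfrc in rod-like cells did not differ from the macrophage-like level beyond counting error (ratio 1.08, 0.924 to 1.27). Smaller classes exceeded some of these levels. Bipolar cell-like cells, interneurons behind the photoreceptors, had Tfrc at 112 CPM in 41 MSC-sEV cells (82.5 to 148) and 148 CPM in 38 PBS cells (112 to 191). Endothelial cell-like cells had Slc40a1 at 181 CPM in 10 MSC-sEV cells (114 to 275) and 62.3 CPM in 21 PBS cells (31.1 to 112), from 22 and 11 UMIs.

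**Figure D1:**
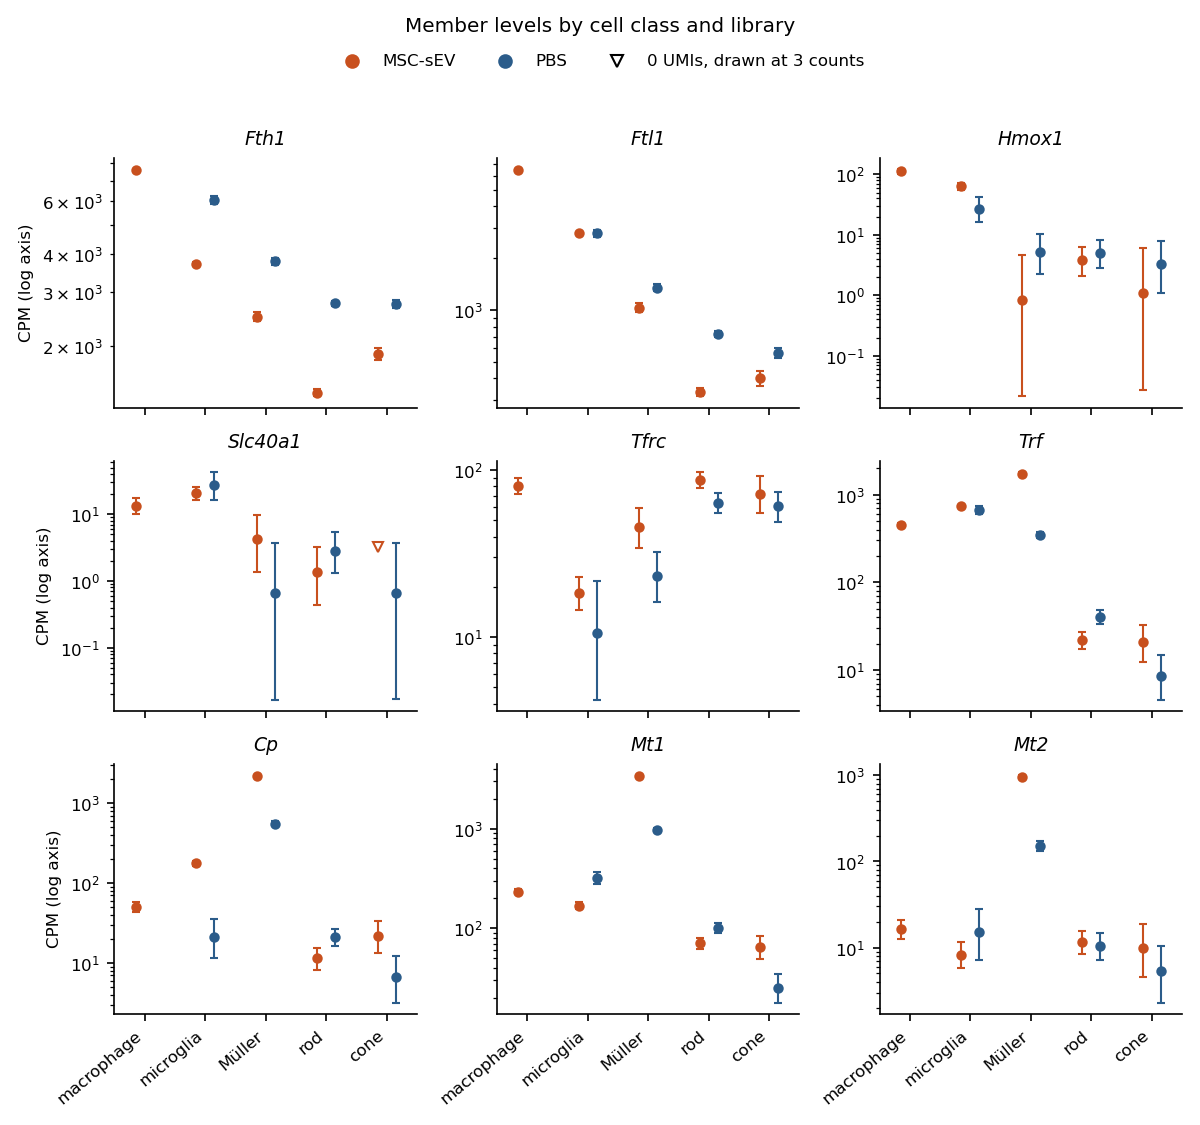
Levels of the 9 genes in CPM, on log axes, in macrophage-like, microglia-like, Müller glia-like, rod-like and cone-like cells of the MSC-sEV (orange, left) and PBS (blue, right) libraries. Points are sums over the cells of a class, bars are exact 95% Poisson intervals, and an open triangle marks 0 UMIs drawn at 3 counts; ferritin is highest in macrophage-like cells (Fth1 7565 CPM) and Cp, Mt1 and Mt2 in Müller glia-like cells of both libraries.

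A gene with at least 20 UMIs over both libraries was compared between them within a class, and counted as changed where its CPM differed at least 2-fold. In Müller glia-like cells 4 of the 7 members that could be compared were changed, namely Trf, Cp, Mt1 and Mt2, each higher with MSC-sEV. There 9.23% of 10178 genes were higher and 4.50% lower by that rule. In microglia-like cells 2 of 9 members were changed, both higher (Hmox1 and Cp), where 12.2% of 10376 genes were higher and 7.88% lower. The members' share in microglia was thus near that of all genes. In rod-like cells 1 of 8 was changed, Ftl1, which was lower, where 15.3% of 10342 genes were higher and 5.12% lower. In cone-like cells 3 of 6 were changed, all higher (Trf, Cp and Mt1), where 11.1% of 8451 genes were higher and 2.20% lower. The median log2 ratio of the members was 1.78 in Müller glia-like cells, 0.01 in microglia-like cells, −0.69 in rod-like cells and 0.76 in cone-like cells, against 0.13, 0.05, 0.27 and 0.23 over all compared genes. Scaling by trimmed means (TMM) would lower every log2 ratio by 0.12 in Müller glia-like, 0.23 in rod-like and 0.28 in cone-like cells and raise it by 0.09 in microglia-like cells. Of the 30 ratios with enough UMIs it turned the sign only of Mt2 in rod-like cells (−0.05) and Tfrc in cone-like cells (−0.03).

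**Figure D2:**
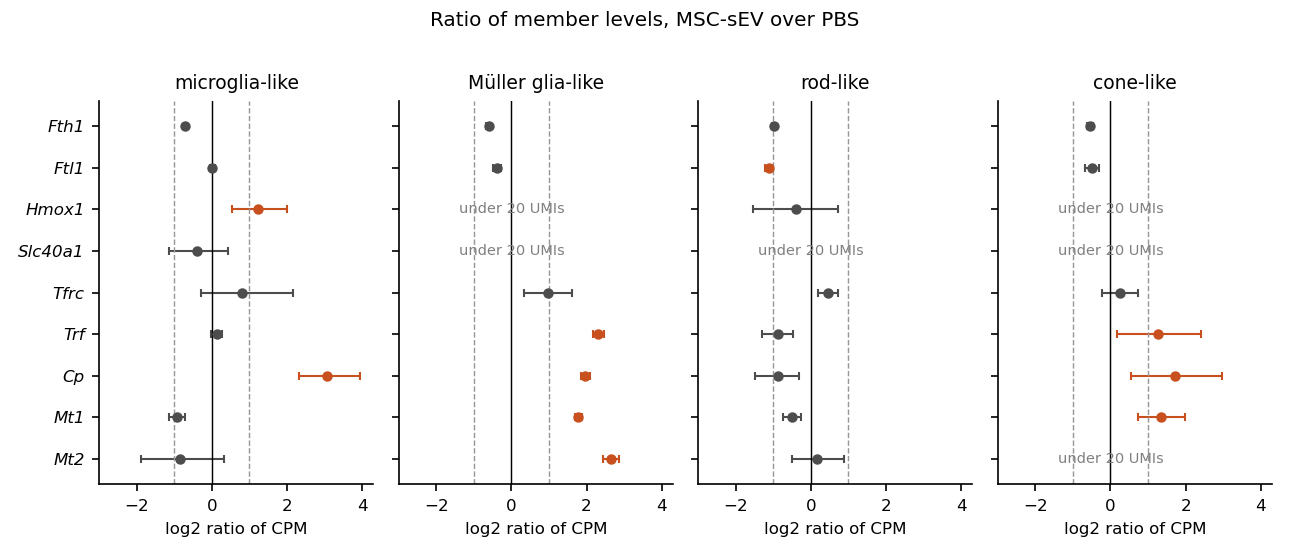
Log2 ratio of CPM, MSC-sEV over PBS, for each gene in 4 cell classes. Points are ratios, bars exact 95% intervals for counting error, dashed lines mark a 2-fold difference, and orange points are past it; the 4 Müller glia-like ratios of Trf, Cp, Mt1 and Mt2 lie between 1.78 and 2.65.

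Of the ferritin chains, the macrophage-like cells had Fth1 at 7565 CPM (7480 to 7652) and Ftl1 at 6503 CPM (6424 to 6583). Microglia-like cells had Fth1 at 3724 CPM in the MSC-sEV library and 6060 CPM in the PBS library, and Müller glia-like cells 2496 and 3799 CPM. Rod-like cells had 1399 CPM in the MSC-sEV library and 2757 CPM in the PBS library, and cone-like cells 1878 and 2750 CPM. Fth1 was thus lower in the MSC-sEV library in all 4 classes, by ratios of 0.615, 0.657, 0.507 and 0.683 in that order, none of them as large as 2-fold. The ratio stayed below 1 in every alternative computed, but in some it came closer to 1. The weakest log2 ratios were −0.39 in microglia-like and −0.04 in cone-like cells, both in cells thinned to 1000 UMIs. They were −0.30 in Müller glia-like cells without mixed cells and −0.26 in rod-like cells as a mean within clusters. The main values were −0.70, −0.55, −0.61 and −0.98 in that order. In microglia-like cells Ftl1 stood at 2801 CPM in the MSC-sEV library and 2784 CPM in the PBS library (ratio 1.01, 0.958 to 1.06). In Müller glia-like cells Ftl1 stood at 1030 and 1348 CPM (0.764, 0.711 to 0.821), though at 1248 and 1160 CPM without the mixed cells described below, and in cone-like cells at 401 and 562 CPM (0.713, 0.629 to 0.807).

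Ferritin in rod-like cells differed with the cluster. Over all rod-like cells Ftl1 stood at 332 CPM in the MSC-sEV library and 726 CPM in the PBS library (0.458, 0.427 to 0.491). Within the 4 rod clusters that both libraries held, its log2 ratios were 0.23, −0.42, −0.30 and −0.37, with a mean of −0.21, so none reached 2-fold. A further rod cluster of 38 cells came from the PBS library alone and had Ftl1 at 1238 CPM and Fth1 at 3947 CPM, at a median of 8500 UMIs per cell. The largest shared cluster, with 602 MSC-sEV and 105 PBS cells, had the lowest ferritin, with Fth1 at 694 and 786 CPM. The lower Ftl1 sum of the MSC-sEV rods was therefore not seen at that size within clusters.

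The number of Fth1 UMIs for each Ftl1 UMI, which compares 2 genes and so depends on their capture, was set side by side across classes only. It was 1.16 in macrophage-like cells, 1.33 in MSC-sEV and 2.18 in PBS microglia-like cells, 2.42 and 2.82 in Müller glia-like cells, 4.21 and 3.80 in rod-like cells, and 4.69 and 4.89 in cone-like cells. Among these 5 classes the ratio was lowest in the macrophage-like cells and highest in the photoreceptors. In microglia the MSC-sEV value was lower than the PBS value beyond counting error (1.30 to 1.36, against 2.06 to 2.30).

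Hmox1, the heme-degrading enzyme, was found mainly in myeloid cells. It stood at 112 CPM in macrophage-like cells and, in microglia-like cells, at 63.0 CPM in the MSC-sEV library and 27.1 CPM in the PBS library (2.32-fold, 1.44 to 3.98). The counts were 273 and 18 UMIs. A UMI was seen in 27.8% of MSC-sEV microglia-like cells (median 5671 UMIs) and 11.9% of PBS ones (median 3148 UMIs). Rod-like cells, which are not known for Hmox1, had a UMI in 1.09% of MSC-sEV and 1.76% of PBS cells at medians of 2498 and 2774.5 UMIs. After thinning to 1000 UMIs per cell the microglia shares were 5.29% of 359 MSC-sEV cells and 1.20% of 83 PBS cells, with 48 and 26 shallower cells left out. Müller glia-like cells had 1 Hmox1 UMI in the MSC-sEV library and 8 in the PBS library, and cone-like cells 1 and 5, so levels there were not told apart from the rod-like background.

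The microglia-like class was made of 2 clusters, and the Hmox1 difference was unequal between them. In the cluster led by Cst7, Aif1 and C1qb, Hmox1 had 89 UMIs in 23 of 205 MSC-sEV cells and 0 UMIs in 69 PBS cells. With 3 counts put in place of 0 in the PBS cluster this was 6.17-fold higher, and the exact interval began at 4.92. In the other cluster, led by the homeostatic markers Cx3cr1, Sall1 and P2ry12 with 202 MSC-sEV and 40 PBS cells, Hmox1 stood at 51.6 and 35.7 CPM (1.44-fold, 0.889 to 2.49). At a clustering resolution of 0.5 the log2 ratio of the class was 0.32, against 1.22. Microglia markers took 9268 CPM of MSC-sEV and 16102 CPM of PBS microglia-like cells, and monocyte or macrophage markers 4392 and 930 CPM. All 16 of the latter markers were detected in the MSC-sEV cells, while Ccr2, Ly6c2, Chil3, Vcan, Arg1 and Ifitm6 were at 0 in the PBS cells. Rod markers took 4716 CPM in the MSC-sEV and 12687 CPM in the PBS microglia-like cells. The part of these markers in the ratios was not tested.

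Slc40a1, the only known iron exporter of mammalian cells, was sparse. Microglia-like cells had it at 20.5 CPM in the MSC-sEV library and 27.1 CPM in the PBS library (0.757, 0.453 to 1.34), from 89 and 18 UMIs. Macrophage-like cells had 13.4 CPM, of which 77.4% lay in 5 cells. Müller glia-like, rod-like and cone-like cells held between 0 and 9 UMIs per library. In the 51 MSC-sEV cone-like cells it had 0 UMIs, with an exact upper limit of 4.03 CPM.

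Tfrc, the receptor for iron-loaded transferrin, was high in photoreceptors and low in microglia. Rod-like cells had it at 87.3 CPM in the MSC-sEV library and 63.9 CPM in the PBS library (1.37, 1.14 to 1.64), and cone-like cells at 72.1 and 60.6 CPM (1.19, 0.853 to 1.65). Macrophage-like cells were near the photoreceptors, at 80.6 CPM. Müller glia-like cells had Tfrc at 45.4 CPM in the MSC-sEV library and 23.2 CPM in the PBS library (1.96, 1.26 to 3.09). Without the cells that held more markers of another class the Müller values were 24.2 and 24.4 CPM. Of the 5 classes microglia-like cells had the least, 18.5 CPM in the MSC-sEV library and 10.5 CPM in the PBS library (1.75, 0.812 to 4.49). In the cluster with homeostatic markers the difference rested on 62 MSC-sEV UMIs and 1 PBS UMI (ratio 8.76, 1.52 to 352).

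Trf, the secreted iron carrier, and Cp, the copper enzyme that oxidises iron for export, were highest among the 5 classes in MSC-sEV Müller glia-like cells. In the PBS library Trf was instead highest in microglia-like cells, at 670 CPM, 1.92-fold above Müller glia-like cells (1.69 to 2.19). In Müller glia-like cells Trf stood at 1734 CPM in the MSC-sEV library and 349 CPM in the PBS library (4.98-fold, 4.52 to 5.49). Cp stood at 2165 CPM in the MSC-sEV library and 552 CPM in the PBS library (3.92-fold, 3.63 to 4.25). The median cell had Trf at 464 CPM in the MSC-sEV library and 178 CPM in the PBS library, and Cp at 1263 and 271 CPM. The sums were carried by few cells: the 5 cells with most UMIs gave 64.3% of Trf in the MSC-sEV library and 23.2% in the PBS library, and 52.4% and 18.7% of Cp. Without the 5 highest cells for each gene, left out in both libraries, the log2 ratio was 1.34 for Trf, against 2.31, and 1.36 for Cp, against 1.97.

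Mt1 and Mt2, the metallothioneins, differed in the same direction in Müller glia-like cells. Mt1 stood at 3341 CPM in the MSC-sEV library and 973 CPM in the PBS library (3.44-fold, 3.23 to 3.65). Mt2 stood at 951 CPM in the MSC-sEV library and 152 CPM in the PBS library (6.27-fold, 5.43 to 7.25). The median cell had Mt1 at 1691 CPM in the MSC-sEV library and 618 CPM in the PBS library, and Mt2 at 231 and 18.8 CPM. A single MSC-sEV cell held 1420 of the 3975 Mt1 UMIs and 516 of the 1131 Mt2 UMIs. Without the 5 highest cells of each library the log2 ratios were 1.06 for Mt1 and 1.61 for Mt2. Mt1 UMIs outnumbered Mt2 UMIs 3.51 to 1 in MSC-sEV Müller glia-like cells (3.29 to 3.76) and 6.41 to 1 in PBS ones (5.57 to 7.40).

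**Figure D3:**
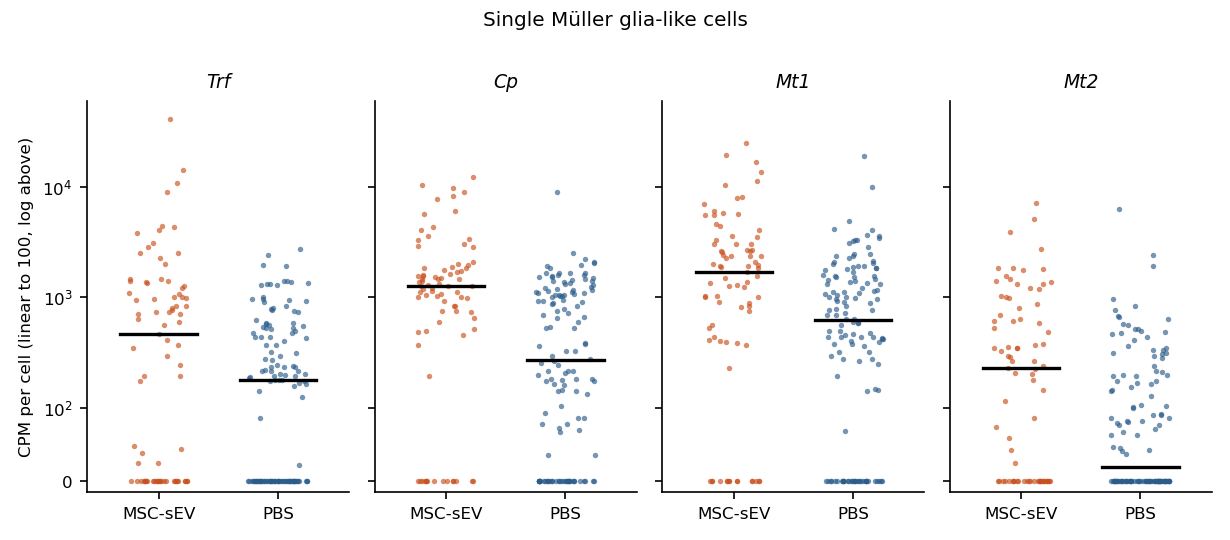
Trf, Cp, Mt1 and Mt2 in single Müller glia-like cells, as CPM of each cell on an axis that is linear up to 100 and logarithmic above it, for 81 MSC-sEV cells (orange, left) and 134 PBS cells (blue, right). Each point is a cell and black lines are medians; the medians are higher in the MSC-sEV library for all 4 genes (Cp 1263 against 271 CPM), while cells at 0 occur in both libraries.

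Other cell types were mixed into the Müller glia-like class to a different degree in each library. In the MSC-sEV library 2 cells had over 1% of UMIs from markers of the retinal pigment epithelium, a tissue that makes transferrin, and these held 605 of the 2063 Trf UMIs, 219 of the Mt1 UMIs, 32 of the Mt2 UMIs and 0 of the Cp UMIs. No PBS cell passed that limit. Without the 2 cells Trf stood at 1243 CPM in the MSC-sEV library and 349 CPM in the PBS library (3.57-fold, 3.23 to 3.95). Red blood cell markers took 31.9 CPM in MSC-sEV and 10233 CPM in PBS Müller glia-like cells, with 5 PBS cells over 1%. Without those 5 the log2 ratios were 2.25 for Trf, 1.77 for Cp, 1.65 for Mt1 and 2.53 for Mt2. Microglia markers took 256 CPM in MSC-sEV and 1152 CPM in PBS Müller glia-like cells, and rod markers 27882 and 39527 CPM. Monocyte or macrophage markers took 727 and 221 CPM, with 4 and 8 of the 16 at 0. Median mitochondrial shares were 3.63% and 5.82%.

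Cells with more markers of another class than of Müller glia numbered 29 in the MSC-sEV library and 73 in the PBS library. In the 52 MSC-sEV and 61 PBS cells left, Trf stood at 2148 and 427 CPM (5.03-fold, 4.38 to 5.80) and Cp at 2632 and 1147 CPM (2.29-fold, 2.09 to 2.52). Mt1 then stood at 2556 CPM in the MSC-sEV library and 1316 CPM in the PBS library (1.94-fold, 1.78 to 2.12), which is under 2-fold, and Mt2 at 570 and 223 CPM (2.56-fold, 2.07 to 3.17). Without the 21 MSC-sEV and 35 PBS cells with over 0.1% microglia or monocyte or macrophage markers, Cp stood at 1465 and 967 CPM, a ratio of 1.52 (1.39 to 1.66). Trf, Mt1 and Mt2 were 4.14-fold, 2.63-fold and 4.44-fold higher in those cells. All 4 were above their PBS level in each of these subsets, by less than 2-fold for Cp without the myeloid marker cells and for Mt1 without the mixed cells.

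**Figure D4:**
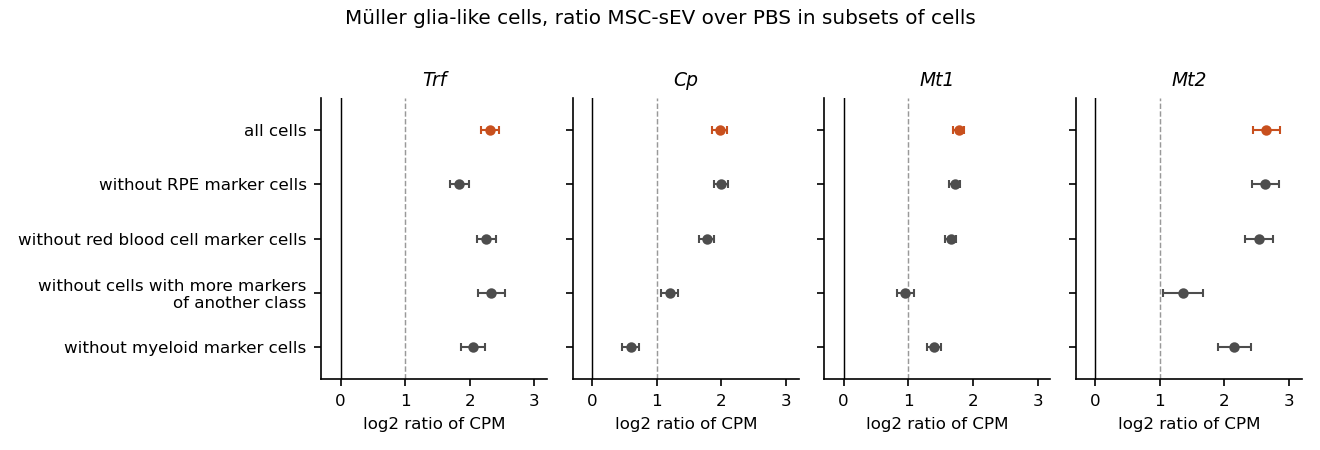
Log2 ratio of CPM, MSC-sEV over PBS, of Trf, Cp, Mt1 and Mt2 in all Müller glia-like cells (orange) and in subsets without cells that carry markers of other types (grey). RPE is the retinal pigment epithelium, bars are exact 95% intervals for counting error and the dashed line is 2-fold; Cp ranges from 0.60 to 1.99 and Trf from 1.83 to 2.33.

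Outside Müller glia the same genes behaved differently from class to class. Cp in microglia-like cells stood at 177 CPM in the MSC-sEV library and 21.1 CPM in the PBS library (8.39-fold, 4.97 to 15.4), from 767 and 14 UMIs, and 5 cells held 36.5% of the MSC-sEV UMIs. The ratio was 10.2 (5.52 to 21.4) in the cluster with homeostatic markers and 2.34 (0.854 to 8.96) in the other, where Cp had 45 and 4 UMIs. The MSC-sEV value lay well above the 11.4 CPM of MSC-sEV rod-like cells, whereas the PBS value equalled the 21.1 CPM of PBS rod-like cells. In MSC-sEV microglia-like cells Cp stood at 195 CPM in the 299 cells with a UMI of Arg1, the arginase of alternatively activated myeloid cells, and at 58.6 CPM in the 108 without, at medians of 8023 and 2814.5 UMIs. At 1000 UMIs per cell a Cp UMI was seen in 7.86% of cells with Arg1 and 6.33% of cells without, with 19 and 29 shallower cells left out, and 5 cells held 280 of the 734 Cp UMIs of the Arg1 cells. No PBS microglia-like cell held an Arg1 UMI. Trf in microglia-like cells was at 733 CPM in the MSC-sEV library and 670 CPM in the PBS library (1.09, 0.990 to 1.21). Mt1 was lower in MSC-sEV microglia-like cells, at 168 CPM, against 321 CPM in PBS ones (0.525, 0.450 to 0.615), and Mt2 had 36 and 10 UMIs.

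Photoreceptors had little of these 4 genes, at most 128 UMIs of Trf, 67 of Cp, 318 of Mt1 and 43 of Mt2 per class and library. Rod-like cells had Trf at 21.8 CPM in the MSC-sEV library and 40.3 CPM in the PBS library, Cp at 11.4 and 21.1 CPM, Mt1 at 70.7 and 100.1 CPM, and Mt2 at 11.7 and 10.4 CPM. The 38 PBS rod-like cells of the cluster absent from the MSC-sEV library held 104 of the 128 Trf UMIs, 35 of the 67 Cp UMIs and 193 of the 318 Mt1 UMIs of PBS rods. Within 3 of the 4 rod clusters held by both libraries the log2 ratio of Mt1 was instead above 0, at 0.72, 1.19 and 1.37, and it was −0.89 in the remaining cluster. The value of 0.72 rested on 89 and 7 UMIs (1.64-fold, 0.766 to 4.21). The value of −0.89 rested on 30 and 16 UMIs (0.539, 0.285 to 1.06), so both lay within counting error. Cone-like cells had Trf at 20.7 CPM in the MSC-sEV library and 8.66 CPM in the PBS library (2.40-fold, 1.12 to 5.28), Cp at 21.8 and 6.66 CPM (3.28-fold, 1.46 to 7.84) and Mt1 at 64.4 and 25.3 CPM (2.55-fold, 1.67 to 3.93). The cone counts were 10 to 59 UMIs, of which the 5 highest MSC-sEV cells held 89.5% for Trf, 19 of 20 UMIs for Cp and 76.3% for Mt1. When each cell took the class of its best marker score, Trf and Mt1 were lower in MSC-sEV cone-like cells. Rod markers took 50247 CPM in MSC-sEV and 80690 CPM in PBS cone-like cells, where cone markers took 16188 and 13941 CPM. Cells with more markers of another class than of cones numbered 29 in the MSC-sEV library and 47 in the PBS library. The part of these markers in the cone ratios was not tested. In rod-like cells microglia markers took 108 CPM in the MSC-sEV library and 564 CPM in the PBS library. Müller glia markers took 156 and 540 CPM there, and cone markers 540 and 1234 CPM. Their part in the rod ratios, those of ferritin included, was not tested.

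Bipolar cell-like cells had more Mt1 than either photoreceptor class. It stood at 1013 CPM in 41 MSC-sEV cells (921 to 1112) and 1154 CPM in 38 PBS cells (1049 to 1266), and Mt2 at 216 and 184 CPM. In 1 of their 2 clusters, with 15 MSC-sEV and 17 PBS cells, Mt1 reached 2171 and 1612 CPM. Their Mt1 level in the PBS library was above that of all Müller glia-like cells (973 CPM, 924 to 1024). It was below the Müller level of 1316 CPM without the mixed cells and 1211 CPM without the myeloid marker cells. The bipolar cell-like cells were not filtered in these ways.

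The 218 macrophage-like cells were reclustered without the 9 members, which gave 6 subclusters. A subcluster of 45 cells led by Gpnmb, a lysosomal glycoprotein, and Spp1, osteopontin, had the highest ferritin, with Fth1 at 16187 CPM (15952 to 16424) and Ftl1 at 15130.5 CPM (14904 to 15360). It also had Hmox1 at 267 CPM (238 to 299), Trf at 1025 CPM (967 to 1086) and Cp at 103 CPM. A subcluster of 41 cells was led by Cxcl10, Tgm2 and Gbp2 and carried the classical monocyte markers Ly6c2 (1081 CPM) and Ccr2 (1508 CPM). It had Fth1 at 3257 CPM, Ftl1 at 3441 CPM, Hmox1 at 71.8 CPM and Tfrc at 12.3 CPM. Its Arg1 stood at 6624 CPM. Ly6c2 was higher, at 2826 CPM, in the 10 cells with markers of plasmacytoid dendritic cells. The 44 cells named as type 2 conventional dendritic cells had the least Ftl1 among subclusters of over 10 cells (1872 CPM) and Hmox1 at 8.35 CPM. Median cells of the Gpnmb subcluster had Fth1 at 10905 CPM and Ftl1 at 8722 CPM, and median cells of the Ly6c2 subcluster 2650 and 2870 CPM. Mt1 stood at 341 CPM in the Gpnmb subcluster, 217 CPM in the Ly6c2 subcluster and 122 CPM in the dendritic subcluster. Of the others, 49 cells carried neutrophil markers, 29 carried rod markers and 10 carried markers of plasmacytoid dendritic cells.

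**Figure D5:**
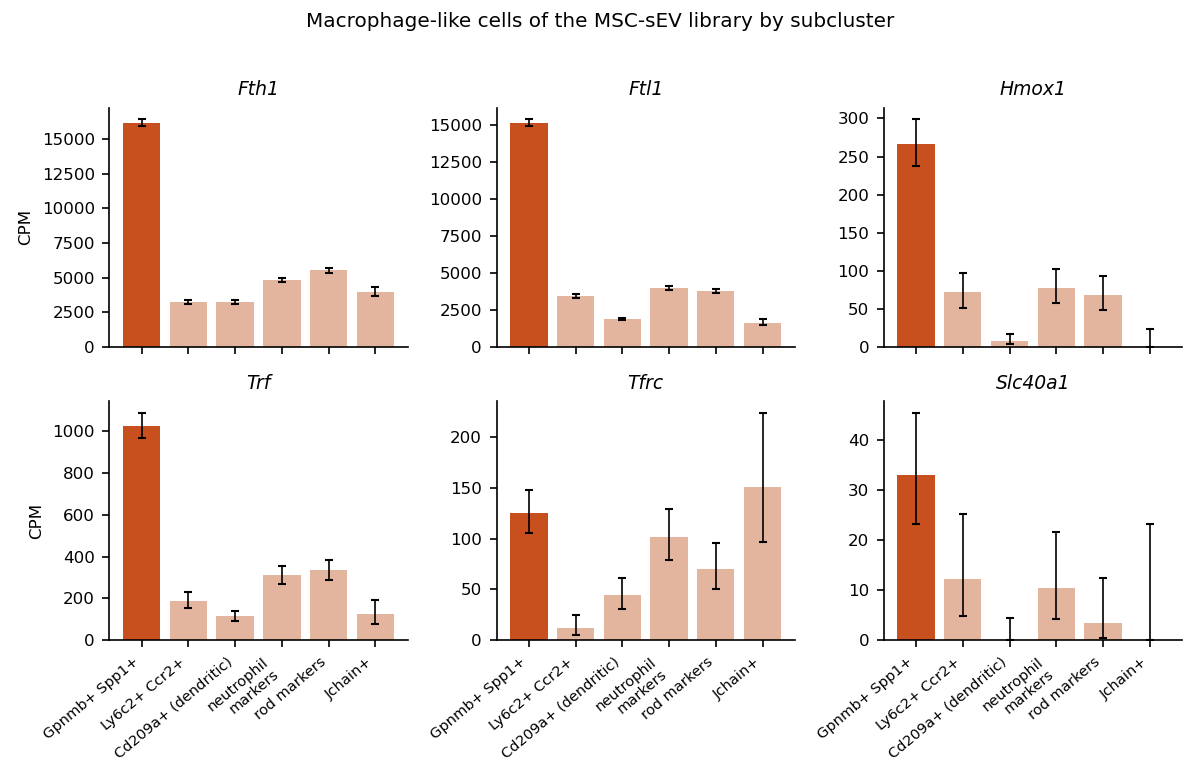
Levels of 6 genes in CPM in the 6 subclusters of macrophage-like cells, all of them MSC-sEV, named by marker genes. Bars are sums over cells with exact 95% Poisson intervals; the Gpnmb+ Spp1+ subcluster (dark) has the highest Fth1 (16187 CPM), Ftl1, Hmox1 and Trf.

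A further 75 genes of iron, heme, zinc and oxidative stress pathways were read as 6 lists. In Müller glia-like cells 62 could be compared, of which 6 were higher and 2 lower with MSC-sEV by at least 2-fold, near the 9.23% and 4.50% of all genes, with a median log2 ratio of 0.14, against 0.13 over all genes. Within them, the list of iron uptake and release had 4 higher and 1 lower of 10 compared. Lcn2, a protein that binds iron-carrying siderophores, stood at 4063 CPM in the MSC-sEV library and 15.9 CPM in the PBS library (255-fold, 171 to 399). Of its 4833 MSC-sEV UMIs, 95.8% lay in 5 cells of 20247 to 72812 UMIs, and those cells held 51 to 364 Trf UMIs in 3 cases and 1 in the other 2. The same 5 cells each held 156 to 356 Cp UMIs. Steap4, a metalloreductase, had 54 UMIs in the MSC-sEV library and 0 in the PBS library, 22.8-fold higher with 3 counts put in place of 0. Slc39a8, an importer of zinc and other metals, had 23 UMIs in the MSC-sEV library and 7 in the PBS library, and the related Slc39a14, named after its values were seen, had 16 and 7. Slc11a1, a metal transporter of phagosomes, had 2 UMIs in the MSC-sEV library and 35 in the PBS library, where microglia markers were also higher. Bach1, the repressor of Hmox1, stood at 36.1 CPM in the MSC-sEV library and 11.9 CPM in the PBS library (3.03-fold, 1.71 to 5.58), and Srxn1, an oxidative stress gene, at 28.6 and 13.3 CPM. The second gene that was lower, Nqo1, was named after its values were seen and had 5 UMIs with MSC-sEV and 15 with PBS.

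In microglia-like cells 9 of 57 such genes were higher with MSC-sEV by that rule and 0 lower (12.2% and 7.88% of all genes), with a median log2 ratio of 0.13 (0.05 over all genes). Hfe, a partner of the transferrin receptor, stood at 163 CPM in the MSC-sEV library and 54.2 CPM in the PBS library (3.01-fold, 2.15 to 4.33). Bach1 stood at 193 CPM in the MSC-sEV library and 90.3 CPM in the PBS library (2.13-fold, 1.64 to 2.82), Slc39a14 at 24.0 and 6.02 CPM, and Slc25a37, the mitochondrial iron importer mitoferrin 1, at 34.8 and 16.6 CPM. In rod-like cells 7 of 57 were higher and 3 lower (15.3% and 5.12% of all genes), with a median of 0.19 (0.27 over all genes). Ireb2, an iron regulatory protein, stood at 62.5 CPM in MSC-sEV rod-like cells and 22.7 CPM in PBS ones (2.76-fold, 2.11 to 3.65). Slc25a37 stood at 64.2 and 16.7 CPM (3.85-fold, 2.85 to 5.29), and Slc30a1, a zinc exporter that metals induce, at 35.1 and 12.6 CPM. Mt3 was lower, with 23 UMIs in the MSC-sEV library and 62 in the PBS library, as were Slc11a1 with 8 and 56 and Lrp1, a receptor for heme bound to hemopexin, with 12 and 26. Microglia markers were also higher in PBS rod-like cells (564 CPM, against 108 CPM with MSC-sEV), and their part in these differences was not tested. In cone-like cells 6 of 52 were higher and 0 lower (11.1% and 2.20% of all genes), with a median of 0.16 (0.23 over all genes), among them Ireb2 at 62.2 and 18.6 CPM.

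The genes most like each member in pattern were ranked by Pearson's r of log2(CPM + 10) over 14 class and library groups of at least 50 cells, among 10082 genes. These r values are descriptions, since the groups share libraries and depth. Ftl1 was closest to its copy Ftl1-ps1 (0.96), which shares its sequence, then to Plekho1 and Matk (both 0.95). Fth1 was closest to Pld3, Pid1 and Cd14 (each 0.86), Hmox1 to Clec4a2 (0.94), Egr2 (0.93) and Nfam1 (0.92), and Slc40a1 to Plxna4os1 (0.97), Fam217b (0.97) and C5ar2 (0.96). Tfrc was closest to Hif1a (0.90), Slc25a12 (0.85) and Lclat1 (0.85). Trf was closest to Lrp1 (0.96), Tns3 (0.95) and Tnfrsf1a (0.95), and Cp to Vcam1 (0.95), Nfix (0.94) and S100b (0.93). Mt1 was closest to Cdc42ep4 (0.94), Nfix (0.93) and Pygb (0.92), and Mt2 to Cgnl1, Necab2 and Scara3 (each 0.96). Among the members themselves, Mt1 and Mt2 had an r of 0.89, Cp and Mt1 0.87, Hmox1 and Slc40a1 0.80, Fth1 and Ftl1 0.77, and Tfrc and Ftl1 −0.52.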

How the data were processed

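The authors deposited UMI counts per gene and cell barcode. Cell Ranger 3.0.2 and build mm10 are named in the submitters' processing notes. The annotation release behind them is not stated; 31011 of 31053 genes matched GENCODE M21 by ID. The libraries held 2593 (MSC-sEV) and 1676 (PBS) barcodes, with 16987131 and 8439740 UMIs. Kept barcodes had 500 or more UMIs from 300 or more genes and no more than 15% mitochondrial UMIs, which left 2323 and 1347. Scrublet, at an expected rate of 2%, marked 4 and 3 doublets (0.172% and 0.223%), so few that doublets count as untreated.

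Cells were clustered with scanpy 1.11.5 on 2000 variable genes without the members, 30 principal components, 20 neighbours and Leiden resolution 1, which gave 18 clusters. A cluster was named from 27 marker lists where at least 3 markers were in at least 20% of its cells and 2-fold above other cells. Levels are CPM of summed counts with exact Poisson intervals, shares have Clopper-Pearson intervals and ratios exact conditional binomial intervals (scipy 1.17.1). Thinning drew 1000 UMIs per cell. The ratio and its interval were tried on Poisson counts simulated from the class sums. Intervals held the true ratio for 95.7% to 96.4% of genes, and the direction of 2-fold changes was recovered for 73.4% to 86.7%. The intervals assume the same model, so this cannot speak to spread between cells or pools.

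The members and lists were chosen with earlier results of these data known. All 9 members are named. Of each context list and class up to 4 genes were eligible, those with at least 20 UMIs, at least 2-fold apart and an interval that leaves out 1, by most UMIs, and 3 similar genes per member. Alternatives changed the cell filter, doublets, resolution, variable genes, class assignment, mixed cells, denominator, scaling, weight of cells, depth and the count minimum.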

Additional observations from a re-analysis of the deposited data

Results flagged for a closer look

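As sums over a class, Trf, Cp and Mt1 differed between the libraries in opposite directions in different cell classes, and the difference between classes was not tested. For Trf the log2 ratio of MSC-sEV over PBS was 2.31 in Müller glia-like and 1.26 in cone-like cells, against −0.89 in rod-like cells. For Cp it was 3.07 in microglia-like, 1.97 in Müller glia-like and 1.71 in cone-like cells, against −0.88 in rod-like cells. For Mt1 it was 1.78 in Müller glia-like and 1.35 in cone-like cells, against −0.93 in microglia-like and −0.50 in rod-like cells. The rod-like values did not hold their direction: over the alternatives they ranged from −1.11 to 4.36 for Trf, −1.36 to 0.05 for Cp and −0.73 to 1.45 for Mt1. In PBS rods, 38 cells of a cluster that the MSC-sEV library lacked held 104 of 128 Trf UMIs. Within the 4 rod clusters that both libraries held, the log2 ratio of Trf was above 0, at 0.26, 1.51, 0.73 and 0.26. These rested on 4 to 37 UMIs per library, and the last on fewer than 20 over both. For Cp the values were 0.69, −0.81, −1.12 and 0.45, from 2 to 25 UMIs per library, the last 2 on fewer than 20 over both. The Mt1 value in microglia-like cells ranged from −1.24 to −0.76. Values of each class stand in the report. Markers of other cell types are given there for microglia-like, Müller glia-like, rod-like and cone-like cells. The part of those markers was not tested.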

How the results depend on the processing

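No paired analysis was possible because each treatment had 1 library. Of the 10 ratios past 2-fold, 8 had 1 direction in all alternatives computed for them, which numbered 9 to 15 per ratio. The exceptions were in cone-like cells: Trf was −1.30 (log2) and Mt1 −0.62 with the class taken from marker scores, and Mt1 was −0.20 with the members among the variable genes. The cause was not tested. A member with too few UMIs in an alternative was not compared there. Cp in cone-like cells was among the 8, but only 9 alternatives were computed for it. Its 5 highest cells held 19 of 20 MSC-sEV UMIs and 8 of 10 PBS UMIs. Too few were left to compare it without those cells, so its direction there is unknown.

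In microglia-like cells 4 members, not 2, were past 2-fold with cells weighted equally. In rod-like cells the count of 1 became 3 with a stricter cell filter, 2 without mitochondrial and ribosomal protein UMIs or with at least 1 UMI, 4 with TMM scaling, and 0 with cells weighted equally or as a mean within clusters. In cone-like cells the count of 3 became 1 with a stricter filter, resolution 0.5, members among the variable genes, no mixed cells, equal weights or at least 50 UMIs. It became 5 with at least 1 UMI, and 0 with thinned cells, where 2 members were left to compare, or without the 5 highest cells, where 4 were left.

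In Müller glia-like cells the log2 ratio ranged from 1.34 to 2.34 for Trf, 0.60 to 2.04 for Cp, 0.96 to 1.81 for Mt1 and 1.35 to 2.71 for Mt2. In microglia-like cells it ranged from 0.32 to 3.45 for Hmox1 and 1.23 to 3.86 for Cp. The class with the highest level was the same for 7 to 9 of the 9 members. Some alternatives were added after seeing the data. These were leaving out cells by retinal pigment epithelium, red blood cell or myeloid markers, leaving out the 5 highest cells, and the values within clusters.

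Depth limits Slc40a1 and Hmox1 in Müller glia-like, rod-like and cone-like cells, with at most 16 UMIs of either per class and library.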
